A study of Mus musculus with 24 samples.

Results

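Transcripts of 10 genes that dividing cells use to copy, mark and pack their chromatin were followed in irradiated astrocyte cultures. The genes were *Mki67* (which encodes the Ki-67 antigen), *Top2a*, *Pclaf*, *Hmgb1*, *Hmgb2*, *Uhrf1*, *Dnmt1*, *Hells*, *Lmnb1* and *Ezh2*. They were chosen by symbol from the 49315 genes listed in each count table, and all 10 passed edgeR's filter on low counts in each comparison. Primary astrocytes were isolated from the cortex of wild-type C57BL/6J mouse embryos shortly before birth. Cells of all embryos of one mother were pooled, so a library stands for pooled embryos and not for a single animal. The cultures received 0, 0.1 or 2 Gy X-rays and were lysed 6 h or 24 h later, with 4 libraries (n1 to n4) in each of the 6 groups. The mock-irradiated cultures (0 Gy) of the same time are the controls, and the labels name neither a transgene nor another agent for any group.

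Ki-67 coats mitotic chromosomes and is a widely used protein marker of cycling cells, and topoisomerase II alpha, the product of *Top2a*, untangles sister DNA molecules before they separate. Pclaf binds the sliding clamp of the replication fork, Uhrf1 reads half-methylated DNA behind the fork and brings in the maintenance methyltransferase Dnmt1, and the remodeller Hells opens chromatin for methylation. Ezh2 is the methyltransferase of a Polycomb complex, Hmgb1 and Hmgb2 bend DNA, and Lmnb1 is a B-type lamin of the nuclear envelope. In resting cells many genes of this kind are held down through promoter elements bound by E2F factors or by a complex that recognises the cell cycle genes homology region (CHR), often next to CCAAT boxes. Astrocytes taken around birth still divide in culture, so a part of the cells is in the cycle at any time.

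Each library held between 14742855 and 38194800 counts, and the lowest count of a member in any library was 143 reads, for *Hells*. Levels are given in CPM, the count of a gene scaled to a common library total, after TMM scaling, which evens out differences in library composition. The 12 markers of the astrocyte list, with the defining marker *Gfap* among them, summed to between 2434 and 3504 CPM per library. Markers of other cells were present too. The 14 fibroblast and vessel markers summed to between 3539 and 7907 CPM and the 14 microglia markers to between 350.0 and 3494 CPM, and no marker of any list was at 0 in all 24 libraries. The libraries numbered n2 stood apart, with microglia sums of 350.0 to 415 CPM in the 6 groups against 2047 or more in all others, and calls of the blocked test at 24 h after 2 Gy are also given without them. A lower level in RNA of a whole culture can come from fewer cells that make the transcript or from less transcript per cell, and these cannot be told apart here. Libraries with the same number within a time deviated together from their group means, so a second fit that compares libraries within their number (the replicate block) stands beside the first where the call differs.

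The stretches before the start sites of these genes are shown because they hold the elements named above. Sequences are those of RefSeq on GRCm38.p6, the build of the count files, and the 250 bases before a start site were searched on both strands for the CCAAT box (CCAAT or ATTGG), the CHR (TTTGAA, its reverse complement TTCAAA and the form TTCGAA) and E2F-type sites (TTCCCGC, the variant TTCGCGC, the form TTGCCGC and the form TTGGCGC), with overlapping matches counted. Windows were at hand for 9 members, 13 in all since some genes have several start sites. A CCAAT box was found in 10 of the 13 windows (76.9%), which belong to 8 members, against 33.8% of all 32851 windows of this length. A CHR was found in 4 of the 13 (30.8%, 4 members) against 17.1%, and an E2F-type site in 5 (38.5%, 4 members) against 7.89%. A match is a run of letters and was not tested as a binding site. The windows of *Top2a* (chr11:99024190-99024439, minus strand), *Mki67* (chr7:135716380-135716629, minus strand) and *Hmgb2* (chr8:57511593-57511842, plus strand) read as follows from 5′ to 3′, with each match in capitals:
Top2a: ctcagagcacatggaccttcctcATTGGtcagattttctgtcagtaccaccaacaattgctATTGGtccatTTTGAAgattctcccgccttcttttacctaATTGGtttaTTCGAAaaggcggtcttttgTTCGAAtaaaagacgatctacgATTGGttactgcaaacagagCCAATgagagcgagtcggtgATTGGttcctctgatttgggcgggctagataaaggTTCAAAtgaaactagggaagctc
Mki67: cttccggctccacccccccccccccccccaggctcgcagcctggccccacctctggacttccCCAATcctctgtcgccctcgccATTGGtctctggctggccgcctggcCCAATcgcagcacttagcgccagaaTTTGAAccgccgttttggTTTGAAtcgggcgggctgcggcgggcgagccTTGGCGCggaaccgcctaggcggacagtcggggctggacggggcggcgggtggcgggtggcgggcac
Hmgb2: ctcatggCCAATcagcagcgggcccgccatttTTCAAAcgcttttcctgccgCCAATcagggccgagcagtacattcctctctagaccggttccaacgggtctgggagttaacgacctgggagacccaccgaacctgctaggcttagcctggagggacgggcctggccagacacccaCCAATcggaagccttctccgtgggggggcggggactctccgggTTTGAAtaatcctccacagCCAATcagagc
The *Top2a* window held 6 CCAAT boxes and 4 CHR matches, and 5 or more CCAAT boxes were found in 0.213% and 4 or more CHR matches in 0.0183% of all windows. *Mki67* had 3 CCAAT boxes, 2 CHR matches and 1 E2F-type site, and *Hmgb2* had 4 CCAAT boxes and 2 CHR matches. At least 1 CCAAT box together with at least 1 CHR match stood in 6.02% of all windows.

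E2F-type matches are shown in 30 bases around them for *Hells* (chr19:38930918-38930947, plus strand), which lies just inside the span of the gene in the count files, and *Uhrf1* (chr17:56303278-56303307, plus strand), which lies upstream of it:
Hells: accaccgggttTTCCCGCgaaagagaagcg
Uhrf1: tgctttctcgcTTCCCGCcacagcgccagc
*Hells* had 2 E2F-type matches and no CCAAT box in its window. *Pclaf* had 2 CCAAT boxes, *Ezh2* 3 and *Hmgb1* 3 at one of its start sites, with neither of the other elements.

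Per kilobase of gene length, *Hmgb1* was the most abundant member in mock-irradiated cultures, with 38.4 CPM per kilobase over both times. *Lmnb1* (17.6), *Hmgb2* (17.1), *Top2a* (13.8), *Dnmt1* (12.1) and *Mki67* (9.95) followed, and *Uhrf1* (8.04), *Pclaf* (6.97), *Ezh2* (5.47) and *Hells* (2.76) were lowest on the same scale. The members also differed in how much the mock-irradiated libraries of one time varied among themselves. The highest library of *Mki67* was 2.42 times the lowest at 6 h and 2.17 times at 24 h, while for *Hmgb1* these ratios were 1.10 and 1.11. *Uhrf1* varied by 1.04 times at 6 h and by 1.98 times at 24 h. Reads of *Hmgb1* may be shared with near-identical copies, since 40 listed genes matched its transcript at 95% identity or more over at least 150 bases, and these had counts of 1.77% to 3.27% of its own.

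**Figure D1:**
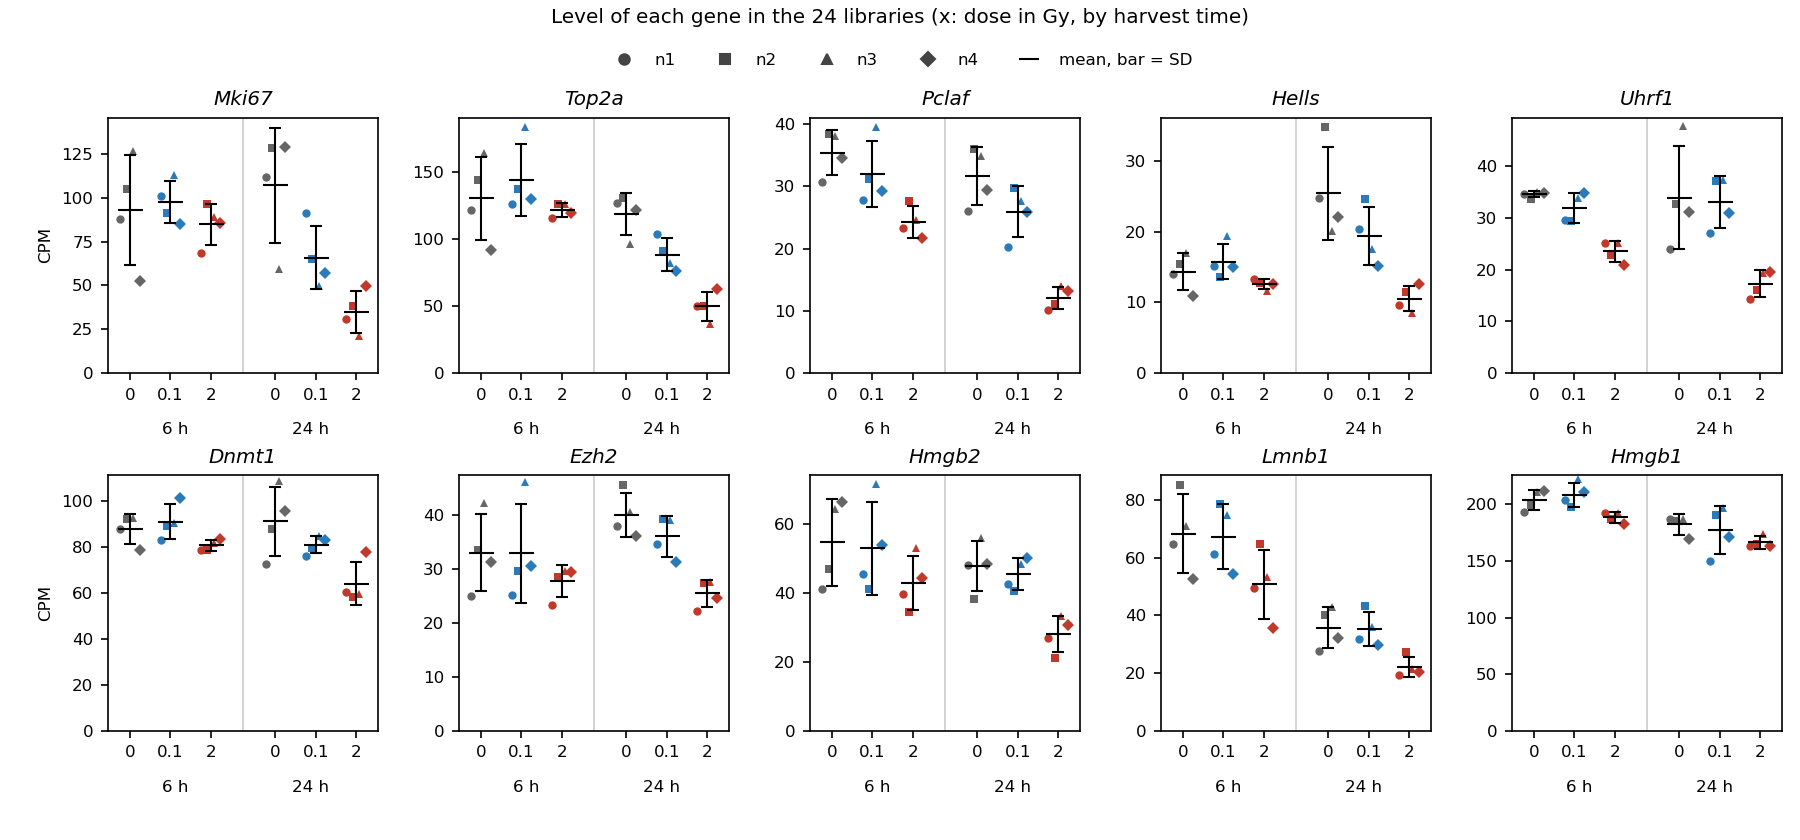
Each panel plots the CPM (y axis from 0) of 1 gene in all 24 libraries by dose in Gy (x axis) and harvest time, with a marker shape for each replicate number and the mean and SD of 4 libraries in black. In 8 of the 10 panels all 4 libraries of 2 Gy at 24 h lie below all 4 libraries of 0 Gy at 24 h, with *Dnmt1* and *Hmgb1* as the exceptions.

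The first comparison asked how these transcripts stood 24 h after the higher dose. At 24 h all 10 members had a lower fitted level after 2 Gy than after 0 Gy, against 48.7% of the 15892 genes tested, with a median log2 fold change of −0.86 against 0.01. The fitted levels ranged from 3.05-fold lower for *Mki67* to 1.09-fold lower for *Hmgb1*. In the test on 4 against 4 libraries, which ignores the replicate number, none of the members and none of the other genes passed at an adjusted p under 0.05 (0.0% of the genes tested, edgeR), although the unadjusted p was under 0.05 for 9 members against 3.59% of all genes. DESeq2 called 6 members lower (*Mki67*, *Top2a*, *Pclaf*, *Hells*, *Uhrf1* and *Ezh2*), against 0.711% of its genes. With the replicate block 9 members fell, against 6.69% of all genes called lower and 6.53% called higher in that fit, and *Hmgb1* did not pass. All 4 libraries of 2 Gy lay below all 4 mock-irradiated libraries for 8 members, against 2.15% of all genes, and all 10 members were lower in 4 of 4 replicate numbers, against 22.5% of all genes. *Mki67*, *Top2a*, *Pclaf* and *Hells* are also in the study's own list of changed genes, which was drawn from these libraries, so their direction is not independent of that choice. The same holds for *Dtl* and *Atad2*, which are named in the related lists below.

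*Mki67* (chr7:135689784-135716361, minus strand, mm10) stood at 112, 128, 59.4 and 129 CPM in the mock-irradiated libraries n1 to n4 at 24 h and at 30.7, 38.2, 21.04 and 49.7 CPM after 2 Gy. The n3 libraries were lowest in both groups, and the groups did not overlap. The log2 fold change was −1.61 ± 0.32 (SE, adjusted p = 0.274, edgeR), and with the replicate block it was −1.61 ± 0.10 (adjusted p = 0.00109, edgeR). Within the numbers the log2 ratio of 2 Gy to 0 Gy ran from −1.86 in n1 to −1.37 in n4, and their SD was 0.22. By staining and flow cytometry the paper found no significant change in Ki-67-positive cells or cell cycle phases after X-rays. Those were measures of protein and DNA, not of the RNA in these libraries. *Top2a* (chr11:98992943-99024189, minus strand) went from 127, 131, 95.9 and 122 CPM to 49.7, 49.7, 36.3 and 62.7 CPM. Again n3 was lowest on both sides and the groups did not overlap. Its level was 2.37-fold lower (log2 −1.25 ± 0.20 SE, adjusted p = 0.184, and 0.00144 with the replicate block, edgeR).

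*Pclaf* (chr9:65890237-65903266, plus strand), whose protein rides on the replication clamp, stood at 26.1, 36.1, 34.9 and 29.4 CPM without and at 10.1, 11.2, 13.96 and 13.3 CPM with 2 Gy at 24 h. The groups lay far apart, with the lowest mock-irradiated and the lowest irradiated library both in n1. It was 2.59-fold lower (log2 −1.37 ± 0.18 SE). No gene tested had a lower adjusted p than its 0.163 without the block (edgeR), a value that other genes share through the adjustment. With the block the adjusted p of *Pclaf* was 0.00147. The list of the clamp and its partners, 12 genes that load, unload or ubiquitinate the clamp or depend on it, was lower in its fitted values for 12 of 12. Of these 9 fell with the replicate block, against 6.69% of all genes, and none rose, with a median log2 fold change of −0.49. Without n2 none of the 12 passed, and without n1, n3 or n4 it was 3, 11 and 3, with medians of −0.43 without n2 and between −0.56 and −0.47 without the others. *Atad5*, which unloads the clamp, had −1.17 on the log2 scale (adjusted p = 0.00367 with the block, edgeR), *Dtl*, a substrate receptor that reads the clamp, had −1.07 (0.0104), and *Usp1*, which removes ubiquitin from it, had −0.85 (0.00968).

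The genes of maintenance methylation were lower to different degrees. *Hells* (chr19:38930915-38971051, plus strand) stood at 24.8, 34.9, 20.1 and 22.0 CPM without and at 9.57, 11.5, 8.57 and 12.5 CPM with 2 Gy, which is 2.39-fold lower (log2 −1.26 ± 0.23 SE, adjusted p = 0.229, and 0.00263 with the replicate block, edgeR). *Uhrf1* (chr17:56303321-56323486, plus strand) went from 24.1, 32.6, 47.7 and 31.1 CPM to 14.3, 15.98, 19.4 and 19.5 CPM. The groups of both genes did not overlap, and for *Uhrf1* the mock-irradiated library n3 stood above the others. *Uhrf1* was 1.94-fold lower (log2 −0.96 ± 0.22 SE, adjusted p = 0.414, and 0.00529 with the replicate block, edgeR).

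*Dnmt1* (chr9:20907209-20959888, minus strand), the enzyme that Uhrf1 recruits, stood at 72.6, 87.6, 108 and 95.7 CPM in mock-irradiated cultures and at 60.2, 58.3, 59.4 and 77.8 CPM after 2 Gy. The irradiated library n4 lay above the mock-irradiated library n1, so the groups overlapped, but each number was lower on its own, with log2 ratios between −0.87 and −0.27. The log2 fold change was −0.50 ± 0.17 (SE, adjusted p = 0.940, and 0.0298 with the replicate block, edgeR). The blocked call held without n3 and was lost without n1, n2 or n4 (adjusted p up to 0.166, edgeR). In the list of 16 other genes of DNA methylation 3 fell with the block, against 6.69% of all genes, and none rose, with a median of −0.24. These were *Cdca7l*, a relative of the Hells partner Cdca7, with −0.55 (adjusted p = 0.0256 with the block, edgeR), *Usp7*, a deubiquitinase that binds Uhrf1 and Dnmt1, with −0.35 (0.0314), and *Uhrf2* with −0.31 (0.0429).

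*Ezh2* (chr6:47530139-47595341, minus strand), the Polycomb methyltransferase, had even changes, with an SD of 0.11 between the log2 ratios of the numbers. Its mock-irradiated libraries stood at 37.9, 45.5, 40.5 and 36.1 CPM and its irradiated ones at 22.3, 27.4, 27.6 and 24.6 CPM. No library crossed over, and the log2 ratios within numbers lay between −0.77 and −0.55. It was 1.56-fold lower (log2 −0.64 ± 0.15 SE, adjusted p = 0.414, and 0.00664 with the replicate block, edgeR). Of 18 other genes of the Polycomb complexes 4 fell and 1 rose with the block, against 6.69% and 6.53% of all genes, and the median was −0.11. *Suz12*, which Ezh2 needs for activity, had −0.54 (adjusted p = 0.0176 with the block, edgeR), the ring finger genes *Bmi1* and *Rnf2* had −0.57 (0.0115) and −0.48 (0.0257), and *Phf1* had 0.38 (0.0365). When the block was joined with a fit of GC content and transcript length in each library, here called the GC correction, none of these 4 passed (*Suz12* −0.34, adjusted p = 0.0947, *Bmi1* −0.33, 0.0746, and *Rnf2* −0.21, 0.222, edgeR).

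Of the HMG-box genes *Hmgb2* passed the blocked test and *Hmgb1* did not. *Hmgb2* (chr8:57511907-57515999, plus strand) went from 48.1, 38.4, 56.1 and 48.4 CPM to 27.0, 21.1, 33.4 and 30.8 CPM, 1.69-fold lower without overlap (log2 −0.75 ± 0.18 SE, adjusted p = 0.427, and 0.00284 with the replicate block, edgeR). *Hmgb1* (chr5:149046702-149184489, minus strand) stood at 187, 186, 187 and 169 CPM without and at 163, 165, 174 and 163 CPM with 2 Gy. The mock-irradiated library n4 lay within the irradiated range. Its log2 fold change of −0.12 ± 0.12 (SE) was no larger than its error (adjusted p = 0.940, and 0.344 with the replicate block, edgeR), and it was 0.17 with the GC correction. Among 11 other HMG protein genes none fell and 2 rose with the block, against 6.53% of all genes called higher, *Hmg20b* with 0.38 (adjusted p = 0.0282 with the block, edgeR) and the nucleosome-binding *Hmgn1* with 0.31 (0.0442) on the log2 scale. With the GC correction *Hmgn1* still passed (0.36, adjusted p = 0.0384, edgeR) and *Hmg20b* did not (0.053, 0.780).

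*Lmnb1* (chr18:56707813-56753424, plus strand), a scaffold gene of the nuclear envelope, stood at 27.7, 39.9, 43.0 and 32.2 CPM in mock-irradiated cultures and at 19.5, 27.3, 21.5 and 20.4 CPM after 2 Gy at 24 h. The highest irradiated library was just below the lowest mock-irradiated one. The log2 fold change was −0.67 ± 0.20 (SE, adjusted p = 0.792, and 0.0117 with the replicate block, edgeR). Of 15 other genes of the nuclear lamina and its anchors 2 fell and 1 rose with the block around a median of 0.06, which is near the 6.69% and 6.53% of all genes called lower and higher. *Tmpo* and *Lbr*, which tether chromatin to the lamina, had −0.55 (adjusted p = 0.0106 with the block, edgeR) and −0.43 (0.0416), and *Banf1*, a DNA-bridging protein, had 0.37 (0.0298). None of these passed with the GC correction (*Tmpo* −0.28, adjusted p = 0.101, *Lbr* −0.30, 0.201, and *Banf1* 0.071, 0.685, edgeR) or without n1, n2 or n4.

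Beyond these lists, 5 of 20 genes of chromatin assembly and heterochromatin and 5 of 15 genes of other topoisomerases and SNF2 remodellers fell with the block, against 6.69% of all genes, and none rose. The medians were −0.28 and −0.20 on the log2 scale. Named by the lowest adjusted p, the former were led by *Atad2*, a bromodomain ATPase (−1.24, adjusted p = 0.00283 with the block, edgeR), the histone chaperone *Asf1b* (−0.81, 0.00624) and the centromeric histone *Cenpa* (−0.57, 0.0148). The latter were led by the recombination motor *Rad54l* (−0.67, adjusted p = 0.0140 with the block, edgeR), *Atrx* (−0.36, 0.0356) and *Smarca5* (−0.34, 0.0401). With the GC correction the counts that fell were 8 for the clamp list, 4 for chromatin assembly, 1 for DNA methylation (*Cdca7l*), 1 for Polycomb, a gene not named here, and 0 for the lamina and remodeller lists, against 1.69% of all genes, and the fold change of *Atrx* turned to 0.05. Neither *Phf1* (0.13, adjusted p = 0.424 with the block and the GC correction, edgeR) nor *Banf1* (0.071, 0.685) passed there as higher. The calls of these lists depended on the numbers. Of the 21 list genes named above, 1 passed with the block without n2 (*Atad2*, −1.24, adjusted p = 0.0431, edgeR), 5 without n1, 21 without n3 and 5 without n4. Without n1, n2 or n4 no gene of the DNA methylation, Polycomb, HMG, lamina and remodeller lists passed in either direction.

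The count in the blocked test at 24 h was lower without n1, n2 or n4, while the fold changes stayed close to those over all numbers. Without n2 the test called 5 members lower (*Mki67*, *Top2a*, *Pclaf*, *Hmgb2* and *Hells*) against 0.376% of all genes, with a median of −0.82 over the 10 members against −0.84 with all numbers. Without n1 it called 7 against 0.68%, without n4 7 against 0.875% and without n3 9 against 16.4%, with medians between −0.89 and −0.78. *Dnmt1* lost its call without n1, n2 or n4, *Ezh2* without n1 or n2, *Lmnb1* without n2 or n4 and *Uhrf1* without n2. In the same 8 libraries the fold changes of 15855 genes were correlated with their GC content (r = 0.559 across genes, which are not independent). The corrected fit still called 9 members lower against 1.69% of all genes. Sizes were smaller than in the blocked fit for *Mki67* (−1.41), *Pclaf* (−1.16), *Top2a* (−0.98), *Hells* (−0.84), *Hmgb2* (−0.50) and *Ezh2* (−0.42). They were larger for *Uhrf1* (−1.04), *Lmnb1* (−0.81) and *Dnmt1* (−0.54). Of the marker lists of other cells, 1 microglia gene fell and 2 rose with the block, 1 oligodendrocyte lineage gene rose, and none of the neuron, fibroblast and vessel or progenitor genes passed, against 6.69% of all genes called lower and 6.53% called higher. Of the 14 microglia markers 2 had a lower fitted value, and their median was 0.13 on the log2 scale. The microglia sum had medians of 2270 CPM at 0 Gy and 2469 CPM at 2 Gy, and the fibroblast and vessel sum 4964 and 4235 CPM. For oligodendrocyte lineage markers the medians were 600 and 733 CPM, for neuron markers 584 and 552 CPM and for progenitor markers 2029 and 2114 CPM. The astrocyte sum had 3189 and 3351 CPM, and the ranges overlapped for each list. Of the 11 astrocyte markers tested 5 had a lower fitted value, *Aqp4* among them with −0.32, and the median was 0.04. With the block 2 passed as higher, against 6.53% of all genes, and none as lower, *Gfap* with 0.39 (adjusted p = 0.0426 with the block, edgeR) and *Aldh1l1* with 0.35 (0.0376). Neither passed without the block (0.940 for both) or with the GC correction (0.20 with 0.297, and 0.22 with 0.164), and no marker of this list passed with the block without n1, n2 or n4, while without n3 2 passed as lower and 3 as higher. The part of cell composition in the result was not tested.

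**Figure D2:**
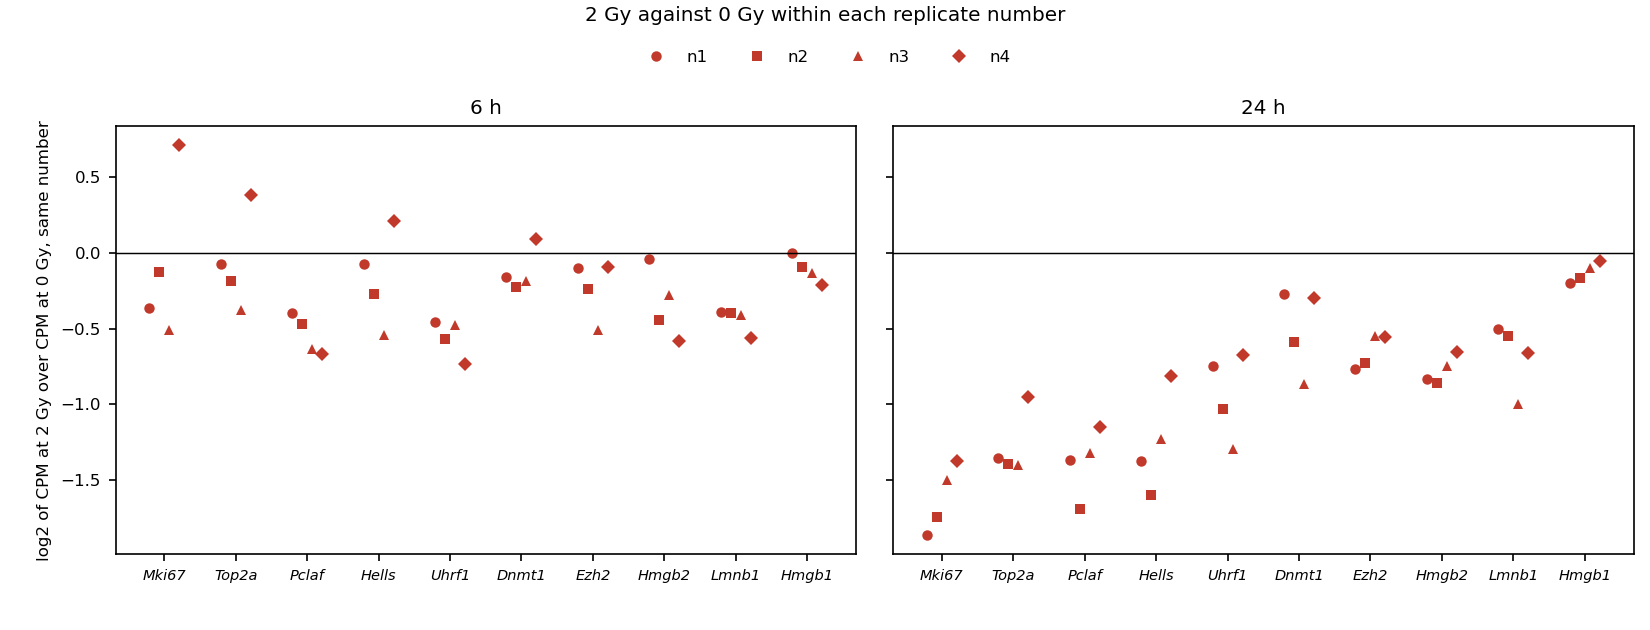
Each point is the log2 ratio of the CPM at 2 Gy to the CPM at 0 Gy of the same replicate number (y axis) for each gene (x axis), at 6 h on the left and at 24 h on the right. All ratios at 24 h are below 0, from −1.86 for *Mki67* in n1 to −0.05 for *Hmgb1* in n4, and at 6 h n4 is above 0 for *Mki67*, *Top2a*, *Hells* and *Dnmt1*.

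Since a ratio of counts within a library needs no scaling between libraries, 7 members were also set against a related gene of the same family. At 24 h the mean log2 ratio of *Top2a* to *Top2b*, the type II topoisomerase that resting cells use, was −0.76 ± 0.28 at 0 Gy and −1.64 ± 0.45 at 2 Gy (SD, n = 4), a difference of −0.88 (two-sided exact permutation p = 0.0571). The ratio of *Ezh2* to *Ezh1* differed by −0.66 (exact permutation p = 0.0571) and that of *Lmnb1* to *Lmnb2* by −0.76 (exact permutation p = 0.0857). In these 3 pairs every number was lower after 2 Gy, but the groups overlapped. The ratio of *Hmgb1* to *Hmgb2* was 1.94 ± 0.24 at 0 Gy and 2.59 ± 0.27 at 2 Gy (SD, n = 4), higher by 0.64 without overlap (exact permutation p = 0.0286, the lowest that 4 against 4 libraries allow). The other 3 pairs differed by −0.61 (*Uhrf1* to *Uhrf2*, exact permutation p = 0.143), −0.60 (*Hmgb2* to *Hmgb3*, exact permutation p = 0.0857) and −0.40 (*Dnmt1* to *Dnmt3a*, exact permutation p = 0.314), and they too were lower in 4 of 4 numbers. After adjustment over the 14 ratio tests at both times the lowest p was 0.15, so none passed. These tests did not use the numbers as pairs, since an exact test of 4 pairs cannot give a two-sided p below 0.125. Of the 8 related genes themselves 1, *Uhrf2*, fell with the block at 24 h, against 6.69% of all genes. It did not pass with the GC correction (−0.15, adjusted p = 0.291, edgeR) or without n1, n2 or n4 (adjusted p up to 0.204). The fold changes of the 8 genes ranged from −0.33 to 0.33 on the log2 scale.

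**Figure D3:**
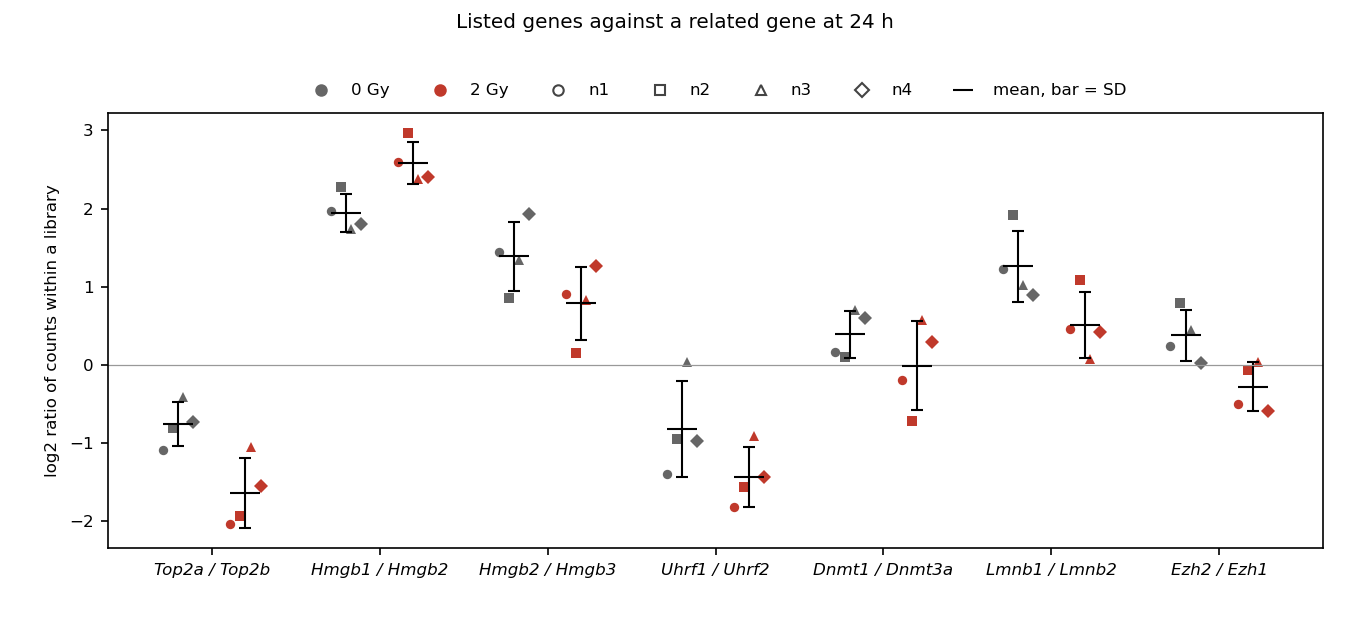
The log2 ratio of the counts of a member to those of a related gene within each library (y axis, 0.5 added to each count) is plotted for 7 pairs at 24 h, with 0 Gy in grey, 2 Gy in red, a marker shape for each replicate number and the mean and SD of 4 libraries in black. The ratio of *Hmgb1* to *Hmgb2* is the one whose groups do not overlap, at 1.94 and 2.59 on average.

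At 6 h after 2 Gy the order of the members was another one. All 10 had a lower fitted level, against 50.4% of 15994 genes, with a median of −0.23 on the log2 scale, and none was called with or without the block (0.0% of the genes tested, edgeR). The unadjusted p was under 0.05 for 2 members, *Uhrf1* and *Pclaf*, against 1.34% of all genes. *Uhrf1* had the most even mock-irradiated libraries of all members, at 34.6, 33.7, 35.1 and 34.8 CPM, and stood at 25.2, 22.8, 25.2 and 20.95 CPM after 2 Gy. Its groups were far apart for their spread, with a log2 fold change of −0.56 ± 0.10 (SE, adjusted p = 1.00, and 0.141 with the replicate block, edgeR). DESeq2, which tested 30045 genes, called 1 gene at 6 h, and that gene was *Uhrf1* (adjusted p = 0.0286, 0.00333% of its genes).

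*Pclaf* went at 6 h from 30.7, 38.5, 38.1 and 34.6 CPM to 23.3, 27.7, 24.5 and 21.7 CPM, again without overlap (log2 −0.55 ± 0.12 SE, adjusted p = 1.00, and 0.141 with the replicate block, edgeR). *Lmnb1* stood at 64.6, 85.1, 70.8 and 52.6 CPM without and at 49.4, 64.6, 53.3 and 35.6 CPM with 2 Gy. Its groups overlapped, while its ratios within numbers were close to each other, from −0.56 to −0.39 (log2 fold change −0.44 ± 0.20 SE, adjusted p = 1.00, and 0.160 with the replicate block, edgeR). *Hmgb2* followed with −0.36, *Ezh2* with −0.26, *Hells* with −0.19, *Mki67* with −0.14, *Dnmt1* with −0.13, *Hmgb1* with −0.12 and *Top2a* with −0.10, each within 2 standard errors of 0. *Hmgb1* too had all 4 irradiated libraries below all 4 mock-irradiated ones, which makes 3 such members against 0.613% of all genes. With the block and the GC correction *Uhrf1* (adjusted p = 0.00746, edgeR), *Pclaf* (0.0109) and *Lmnb1* (0.0112) passed, against 0.138% of all genes called lower, and DESeq2 with the block called the same 3 genes, against 0.0654%. Each of 4 numbers was lower for 6 members, against 7.23% of all genes. The fold changes of 15959 genes at 6 h were related to GC content with r = −0.373 across genes, opposite in sign to 24 h.

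*Mki67* did not pass at 6 h after 2 Gy in any of the fits, the lowest adjusted p being 0.0501 (edgeR with the replicate block, without n4). The mock-irradiated libraries stood at 88.1, 105, 127 and 52.4 CPM and the irradiated ones at 68.4, 96.3, 89.0 and 85.6 CPM. The irradiated range lay inside the mock-irradiated one, and n4 was higher after 2 Gy while the other numbers were lower. *Top2a* had 121, 143, 164 and 91.5 CPM without and 115, 126, 126 and 119 CPM with 2 Gy, with the same exception of n4. The within-library ratio of *Uhrf1* to *Uhrf2* was −0.60 ± 0.08 at 0 Gy and −1.16 ± 0.20 at 2 Gy at 6 h (SD, n = 4), apart in all libraries (exact permutation p = 0.0286, adjusted p = 0.15), and the other 6 pairs overlapped. Of the 12 genes of the clamp list 12 had a lower fitted value at 6 h, against 50.4% of all genes, with a median of −0.25. None was called with or without the block, and 2 were called lower with the block and the GC correction, against 0.138% of all genes. Without n4 the blocked test called *Pclaf*, *Uhrf1* and *Lmnb1* lower at 6 h, against 0.217% of all genes, and without any other number it called none.

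**Figure D4:**
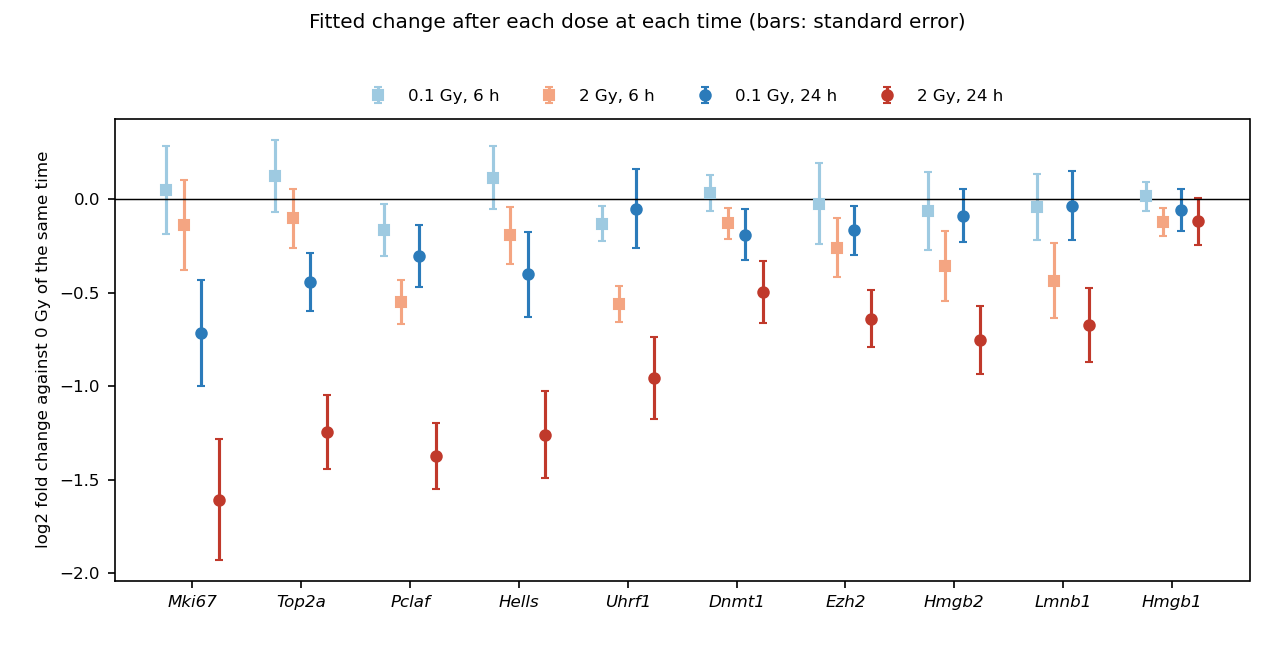
The fitted log2 fold change against 0 Gy of the same time (y axis, bars are standard errors) is plotted for each gene (x axis) and each of the 4 combinations of dose and time, and the doses of one time share their 4 mock-irradiated libraries. The values for 2 Gy at 24 h run from −1.61 for *Mki67* to −0.12 for *Hmgb1*, and those for 0.1 Gy at 6 h lie between −0.17 and 0.13.

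After 0.1 Gy the members stood close to the mock-irradiated cultures at 6 h. Of the 10 genes 5 had a lower fitted level, against 51.5% of 16020 genes, all values lay between −0.17 and 0.13 on the log2 scale, and none was called by edgeR or DESeq2 with or without the block (0.0% of the genes tested). The unadjusted p was under 0.05 for 0 members and 0.15% of all genes (edgeR). At 24 h all 10 were lower in their fitted values, against 51.1% of 16183 genes, with a median of −0.18 on the log2 scale against −0.0067. No gene of the table was called without the block (0.0% of the genes tested, edgeR), where 2 members and 1.49% of all genes had an unadjusted p under 0.05. With the block *Mki67*, *Top2a* and *Hells* fell, against 4.5% of all genes called lower.

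*Mki67* stood at 91.3, 65.0, 49.9 and 57.4 CPM 24 h after 0.1 Gy, between the mock-irradiated and the 2 Gy libraries in n1, n2, n3 and n4 alike. Its log2 fold change against 0 Gy was −0.72 ± 0.29 (SE, adjusted p = 0.943, and 0.0262 with the replicate block, edgeR). The ratios within numbers ran from −1.17 in n4 to −0.25 in n3, an SD of 0.47. *Top2a* had 104, 90.8, 82.2 and 76.4 CPM and a log2 fold change of −0.44 ± 0.15 (SE, adjusted p = 0.943, and 0.0279 with the replicate block, edgeR), and *Hells* had 20.4, 24.7, 17.5 and 15.1 CPM and −0.40 ± 0.23 (adjusted p = 0.943, and 0.0400). Each number was lower for these 3 genes, *Pclaf* and *Ezh2*, against 15.0% of all genes, but the groups of all 10 members overlapped with the mock-irradiated libraries, against 0.525% of all genes that lay apart and lower. None of the 3 passed with the block without n2 or without n4, and with the GC correction *Mki67* alone did (−0.50, adjusted p = 0.0203, edgeR, against 0.538% of all genes). There *Top2a* had −0.19 (adjusted p = 0.149, edgeR), *Hells* had −0.047 (0.820), and *Hmgb1*, *Hmgb2* and *Ezh2* had values above 0 (0.18, 0.15 and 0.021). The fold changes of 16145 genes in this comparison were correlated with GC content with r = 0.587 across genes. *Uhrf1*, the member that DESeq2 called at 6 h after 2 Gy, had 27.1, 37.1, 37.4 and 30.9 CPM 24 h after 0.1 Gy, and 2 of its 4 numbers were higher than at 0 Gy.

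Set against each other at 24 h, 2 Gy was lower than 0.1 Gy for 10 of 10 members, against 42.8% of 16002 genes, with a median of −0.73 on the log2 scale against 0.02. All 4 libraries of 2 Gy lay below all 4 of 0.1 Gy for 8 members, against 1.15% of all genes. None was called with or without the block (0.0% of the genes tested, edgeR), 9 had an unadjusted p under 0.05 without it against 1.34% of all genes, and the lowest adjusted p with it was 0.0639, for *Pclaf* and *Uhrf1*. The fold changes of these genes were −1.07 ± 0.17 and −0.91 ± 0.16 (SE), and DESeq2 called both of them and no other member, against 0.213% of its genes. With the block and the GC correction 7 members were called lower, against 0.612% of all genes. Without n3 the blocked test called 7 members against 0.802% of all genes, without n4 it called 6 against 0.245%, and without n1 or n2 none. At 6 h the same comparison gave values between −0.43 and −0.14, edgeR called none lower with or without the block (0.0% of the genes tested), and with the block and the GC correction 3 were called lower, against 0.123%.

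Whether the response to 2 Gy differed between the times was tested as an interaction over 16 libraries. The change at 24 h was the more negative one for 9 of 10 members, against 48.9% of 16866 genes, with a median difference of −0.39 on the log2 scale against 0.01. None was called without the block (0.0% of the genes tested, edgeR), where the unadjusted p was under 0.05 for 4 members against 4.9% of all genes. With the block 4 members had a more negative change at 24 h, against 3.23% of all genes, and these were *Mki67* (difference −1.51, adjusted p = 0.0152, edgeR), *Top2a* (−1.18, 0.0142), *Hells* (−1.04, 0.0335) and *Pclaf* (−0.81, 0.0335). *Uhrf1* (−0.36) and *Lmnb1* (−0.21), which with *Pclaf* had the largest fold changes at 6 h, did not pass. With the GC correction *Mki67* (−1.25) and *Top2a* (−0.80) passed, against 0.949% of all genes, while *Hells* had −0.51 (adjusted p = 0.0669, edgeR) and *Pclaf* −0.52 (0.0536). The differences of 16821 genes were correlated with GC content with r = 0.567 across genes. Without n1 or without n2 the blocked test called none of the 10 and no gene at all lower, without n3 it called 5 against 11.3% of all genes and without n4 4 against 0.407%.

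In mock-irradiated cultures *Lmnb1* was the member called between the times. It stood at 64.6, 85.1, 70.8 and 52.6 CPM at 6 h and at 27.7, 39.9, 43.0 and 32.2 CPM at 24 h, 1.93-fold lower without overlap (log2 −0.95 ± 0.20 SE, adjusted p = 0.0252, edgeR, with 3.46% of all genes called lower). *Hells* had the opposite direction, from 14.1, 15.5, 17.0 and 10.96 CPM to 24.8, 34.9, 20.1 and 22.0 CPM (log2 0.81 ± 0.22 SE, adjusted p = 0.0576, edgeR), and DESeq2 called it (adjusted p = 0.0122, with 6.6% of its genes called higher). The call of *Lmnb1* was lost without n1 or n3 at 6 h and without n1 or n4 at 24 h (adjusted p up to 0.0886, edgeR). Without the block the other 8 members lay between −0.21 and 0.26 on the log2 scale and were not called. Between the times n1 and n2 correlated best with their own number (0.409 and 0.824), while n3 and n4 did not (0.0646 and 0.517). The numbers were therefore not taken to pair the cultures of both times. A difference in harvest time and a difference between sets of cultures cannot be told apart.

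Ordered by mean level, the 2 Gy libraries at 24 h were the lowest of the 6 groups for all 10 members. For 7 of them all 4 of these libraries lay below those of the group next in order, and for *Hells*, *Ezh2* and *Hmgb1* the lowest groups overlapped. How often either holds among all genes was not computed, so these counts only describe the members. The group next to lowest was 2 Gy at 6 h for *Pclaf*, *Hmgb2*, *Uhrf1*, *Dnmt1*, *Hells* and *Ezh2* and 0.1 Gy at 24 h for *Mki67*, *Top2a*, *Lmnb1* and *Hmgb1*. All other neighbours in the order overlapped, apart from the step between 0.1 Gy and 2 Gy at 6 h for *Uhrf1* and that between 0 Gy and 2 Gy at 6 h for *Hmgb1*.

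The profiles over the 24 libraries set the members apart from each other. Likeness was measured as the root mean square difference of centred log2 CPM over 17353 genes. The genes nearest to *Mki67* were *Bub1* (0.19), *Kif15* (0.20), *Knl1* (0.20), *Blm* (0.21) and *Stil* (0.22), of which the first 3 act at kinetochores or on the spindle, and the nearest member was *Top2a* (0.23). Nearest to *Uhrf1* were *Mcm2* (0.14), *Nsl1* (0.15), *Mcm5* (0.16), *Eme1* (0.19) and *Mcm3* (0.19), with 3 subunits of the replicative helicase among them, and the nearest members were *Dnmt1* and *Pclaf* (both 0.26). *Mki67* and *Uhrf1* lay 0.59 from each other on this scale. The genes nearest to *Hmgb1* were *Morf4l1* (0.08), *Atp6v1g1*, *Clptm1l*, *Ywhae* and *Actl6a* (each 0.10 or less), and its nearest member was *Dnmt1* (0.19). A small difference from *Hmgb1* mostly says that a gene varied little, as *Hmgb1* did.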

How the data were processed

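Poly(A) RNA of 24 astrocyte cultures was sequenced in one run, and the authors deposited 1 table of raw counts per gene and library. The build is mm10 per the submitters' processing notes, and the aligner, the counting tool and its use of strand are not given in the sources used here, so reads of overlapping antisense genes cannot be told apart. Groups and replicate numbers came from the sample titles. Totals per library ranged from 14742855 to 38194800 counts, which sets the counting error of low genes.

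Each pair of groups was tested with edgeR 4.0.16 in R 4.3.3 (quasi-likelihood test, TMM scaling, filterByExpr, Benjamini-Hochberg adjustment over all genes tested, called at an adjusted p under 0.05). DESeq2 1.42.0 was run as an alternative, and the fits were checked on simulated counts. Values of single libraries are TMM-scaled CPM, profiles are log2 CPM with a prior count of 2, and ratios of related genes had 0.5 added to each count and were compared by exact permutation tests. The GC content and length correction fitted natural splines with 5 degrees of freedom per library. Within a time, libraries of the same number were correlated in their deviations from the group means (0.539 to 0.927 in the 6 comparisons of doses, each library best with its own number), so the numbers were taken to pair the libraries, and blocked fits stand beside the others where calls differ. The labels do not say which isolation a replicate came from, so p-values measure the spread between these libraries. No pair of libraries of one group agreed within sampling noise (chi-square per degree of freedom of 28.3 or more in 36 pairs). Similar genes were searched with BLAST 2.17.0 and the motifs with Python 3.11.15. Named genes are the 10 members, the related genes, up to 3 genes per list and direction with the lowest adjusted p in the blocked fit of 2 Gy at 24 h, and the 5 genes nearest to each of 3 members. The members and lists were chosen with earlier results of these data known. The alternatives left out each library in turn and changed the scaling, the filter, the call rule and the samples in the fit.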

Additional observations from a re-analysis of the deposited data

Results flagged for a closer look

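With 4 libraries in a group, a library was set aside for a closer look when its gap to the nearest other one took up nearly the whole range of the group (above Dixon's critical value). Of 60 groups of 4, 2 had such a library, and chance alone gives about 1 in 20. *Hmgb1* in mock-irradiated cultures at 24 h was 169 CPM in n4 and between 186 and 187 CPM in the others. *Dnmt1* 24 h after 2 Gy was 77.8 CPM in n4 against 58.3 to 60.2 CPM in the others, and n4 was the number in which the log2 ratio of *Dnmt1* to its mock-irradiated culture was −0.30, close to the −0.27 of n1.

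The response to 2 Gy differed between the times for 4 members in the blocked interaction test (edgeR, 16866 genes), against 3.23% of all genes with a more negative change at 24 h. The log2 fold change at 24 h minus that at 6 h was −1.51 for *Mki67* (adjusted p = 0.0152), −1.18 for *Top2a* (0.0142), −1.04 for *Hells* (0.0335) and −0.81 for *Pclaf* (0.0335). None of the 4 passed without the block, where the lowest adjusted p of the members was 0.819, and with the block and the GC correction *Hells* (−0.51, adjusted p = 0.0669, edgeR) and *Pclaf* (−0.52, 0.0536) did not pass. Without n1 or without n2 the blocked test called none of the 10 members (lowest adjusted p of 0.120 and 0.286, edgeR). The difference in size between *Pclaf*, which was lower at both times, and *Mki67* was not tested.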

How the results depend on the processing

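At 24 h after 2 Gy the number of the 10 members called was 0 in edgeR without the block, also without any 1 library. It was 6 with DESeq2, 6 with all 24 libraries in one fit, 9 with the replicate block, 9 with the block in DESeq2, 9 with the block and GC correction, 9 with the block and library size alone (chosen after seeing the data) and 4 with the block and a log2 fold change of 1 or more in size. Leaving out 1 number under the block gave 5 to 9. Over all genes the count was 0, 103 with DESeq2, 108 with all libraries in one fit, 2100 with the block, 2320 with the block in DESeq2, 558 with the block and GC correction, 2191 with the block and library size alone, 129 with the block and a log2 fold change of 1 or more in size, and from 69 (without n2) over 143 (n1) and 245 (n4) to 5291 (n3) with the block and 1 number left out.

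At 6 h after 2 Gy the members called were 0, 1 with DESeq2, 3 with the block in DESeq2, 3 with the block and GC correction, and 0 to 3 with the block and 1 number left out. For 0.1 Gy at 24 h they were 0, 3 with the block, 4 with the block in DESeq2, 1 with the block and GC correction, 2 with the block and library size alone, and 0 to 3 with the block and 1 number left out. The median of the members there was −0.18, −0.089 with library size alone, −0.14 without a filter, −0.13 with the block and GC correction and −0.079 with the block and library size alone, and ran from −0.22 to −0.13 without 1 library and from −0.21 to −0.14 with the block and 1 number left out. For 2 Gy against 0.1 Gy at 24 h the count was 0, 2 with DESeq2, 2 with all libraries in one fit, 8 with the block in DESeq2, 7 with the block and GC correction, 4 with the block and library size alone, and 0 to 7 with the block and 1 number left out. At 6 h it was 0, 2 with the block in DESeq2 and 3 with the block and GC correction. For the interaction it was 0, 4 with the block, 5 in DESeq2 with the block, 2 with the block and GC correction, 4 with the block and library size alone, 3 with the block and a log2 difference of at least 1, and 0 to 5 with the block and 1 number left out. Outside 2 Gy against 0 Gy, no share of all genes is given for the block in DESeq2, library size alone, all libraries in one fit or the size limit. Those counts of members cannot be set against a background.

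For 24 h against 6 h at 0 Gy the numbers were not taken to pair the libraries (correlations of 0.0646 to 0.824). The count was 1, 2 with DESeq2, 2 with all libraries in one fit, 2 with the block (*Lmnb1*, and *Hells* with an adjusted p of 0.0212, edgeR), 2 with the block in DESeq2, 3 with the block and GC correction, 2 with the block and library size alone, 0 with a log2 fold change of 1 or more in size with or without the block, 0 to 2 without 1 library and 0 to 4 with the block and 1 number left out. With the GC correction *Top2a* passed too (−0.37, adjusted p = 0.0245, edgeR). The 4 were *Mki67*, *Hells*, *Lmnb1* and *Ezh2* without n3, where 23.7% of all genes were called lower. For the other alternatives between the times the share of all genes is not given, so their counts cannot be set against a background.

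With the block and GC correction the sign of *Hmgb1* (0.17) and *Atrx* (0.049) turned at 24 h after 2 Gy. At 6 h *Mki67* ran from −0.33 to 0.038 without 1 library and from −0.34 to 0.049 with the block and 1 number left out (0.0097 without n1), and *Top2a* from −0.24 to 0.021 and from −0.22 to 0.023. The ratio of *Hmgb1* to *Hmgb2* at 24 h ran from 0.52 to 0.75 and that of *Uhrf1* to *Uhrf2* at 6 h from −0.62 to −0.48 without 1 library, where 4 against 3 libraries cannot give an exact permutation p below 0.0571. All 16 of these values had that p, against an unadjusted 0.0286 with all libraries, and neither ratio passed after adjustment. Over the other counts, medians and ratios, 340 alternative values stayed within 1.5 times the main count or within the spread and 73 moved. The causes of these changes were not tested. The members had counts of 143 reads or more, and the part of counting error in the spread between libraries was not tested.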
